A study of Mus musculus with 52 samples.

Results

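This account covers the fat around the ovaries of female mice that carry, in 1 copy, a knock-in allele with 80 CAG repeat units (Q80), set against females that carry the allele with 20 units (Q20). The 8 libraries, 4 of Q80 females and 4 of Q20 females, were chosen by the genotype and sex in their labels from the 52 libraries of the series. MicroRNA (miRNA) precursors were counted by small RNA sequencing in gonadal white fat of C57BL/6 mice at an age of 6 months. All 8 libraries are of heterozygous mice, which also keep an allele that the labels do not describe further. The labels place Q80 mice in cages with other Q80 mice, and Q20 mice in cages with wild-type and Q20 mice, so genotype and housing cannot be told apart here. Each library has its own code in the labels, which do not say whether the code stands for an animal, so p-values measure the spread between libraries.

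The CAG repeat encodes a run of glutamines near the start of huntingtin, and long repeats cause Huntington's disease in people. Knock-in mice carry the long repeat in their own gene, so tissues that use the gene can make the altered protein. Huntingtin was not measured here. A miRNA precursor is a short RNA hairpin from which the mature miRNA is cut, and the mature miRNA lowers the output of messenger RNAs with matching sites. In white fat, miRNAs are known to take part in the making of new adipocytes, in lipid storage and in inflammation. The files name each precursor by its miRBase accession alone, and no table used here pairs these accessions with miRNA names. Names, sequences, families and roles are therefore not given, and the fat was not checked against cell type markers. Of the precursors in each comparison, no more than a pair of higher and a pair of lower ones are printed by accession.

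The Q80 female libraries held 2935053 to 4136500 estimated counts and the Q20 female libraries 3377220 to 4188904, totals that did not differ by an exact permutation test (2-sided, p = 0.486, 4 against 4, smallest p possible 0.0286). A count in any of the 8 libraries was found for 805 of the 1187 precursors, and the 300 with at least 10 counts in at least 4 libraries were tested. These 300 held 99.98% of the counts. No precursor had 10 counts in all 4 libraries of 1 group and none in the other. Levels are given as CPM (counts per 1000000, scaled to library size). Each column header also carries a token, L1 or L3, that no label defines, and libraries are called L1 or L3 by it. Values are from bulk tissue, in which fewer cells of a type and less RNA per cell cannot be told apart.

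Few precursors made up most of the miRNA in this fat. The 5 most abundant held 58.7% ± 0.557 of the counts in Q80 females and 60.7% ± 2.19 in Q20 females (SD, n = 4 each), with an exact permutation p of 0.20 (2-sided). MI0000221 was the most abundant, at 211483 ± 13819.7 CPM in Q80 females and 233543 ± 36672.5 CPM in Q20 females (SD, n = 4 each). Its log2 fold change was -0.14 (SE 0.12, edgeR adjusted p = 0.541). MI0000257 followed, at 121147 ± 6101 CPM in Q80 females and 157321 ± 31470 CPM in Q20 females (SD, n = 4 each). The log2 fold change of MI0000257 was -0.38 (SE 0.14), with an unadjusted p of 0.018 and an edgeR adjusted p of 0.256. For both precursors the SD was smaller in Q80 than in Q20 females. Scaling factors that make libraries comparable (TMM) were computed over all 1187 precursors for this measure. They did not overlap, at 1.02 to 1.06 in Q80 females and 0.920 to 0.995 in Q20 females (exact permutation p = 0.0286, the smallest possible). The edgeR fit and the CPM values computed their own factors over the 300 tested.

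The comparison of Q80 with Q20 females asks which miRNAs differ in this fat when the repeat is expanded. No precursor passed the test: edgeR's quasi-likelihood test with Benjamini-Hochberg adjustment over all 300 precursors called 0 (0%) at 0.05, and the lowest adjusted p was 0.132. At an unadjusted p under 0.05 there were 39 (13%), of which 27 (9%) were higher and 12 (4%) lower in Q80 females. With the spread estimated over 18 females this count was 18 of 332, and over 37 libraries, with more precursors tested, it was 9. All 4 Q80 female libraries lay above all 4 Q20 female libraries in 17 precursors (5.67%), and below them in 4 (1.33%). DESeq2 called 7 precursors, 6 higher and 1 lower, and limma on log2(RPKM + 1) called 11, all higher. On that scale the median log2 change of all precursors was 0.12, against 0.02 in the edgeR fit. RPKM is not rescaled by TMM factors, and 6 precursors were called by DESeq2 and limma alike. Without Q20 replicate 4, edgeR called 8 precursors, all higher, while each of the other 7 omissions of a library gave 0.

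**Figure D1:**
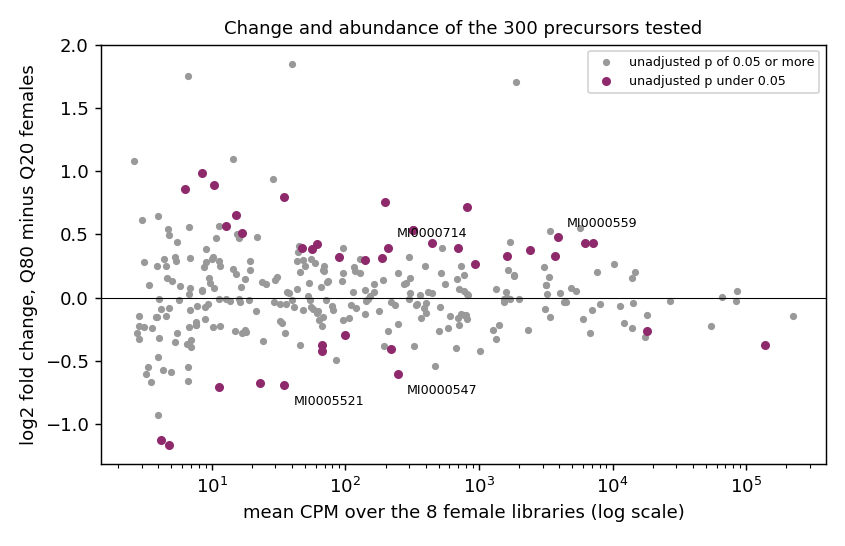
Log2 fold change in Q80 minus Q20 females (vertical axis) against mean abundance in CPM (log horizontal axis) for the 300 precursors tested; coloured points are the 39 with an unadjusted p under 0.05. Most points lie within 1 log2 unit of 0, and 27 of the 39 coloured points lie above it.

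The higher precursor with the lowest p was MI0000559, whose hairpin is 94 nucleotides long by the ratio of the deposited count and RPKM tables, and which ranked 31 by abundance. It stood at 4674, 4479, 4331 and 4664 CPM in Q80 females, against 3113, 3112, 3178 and 3642 CPM in Q20 females. Every Q80 library was above every Q20 library, and the highest Q20 value came from replicate 4, the 1 L1 library of Q20 females. The log2 fold change was 0.48 (SE 0.10, 95% interval 0.27 to 0.69), with an unadjusted p of 0.000440 and an edgeR adjusted p of 0.132. DESeq2 called it (log2 0.44, adjusted p = 8.36e-05), as did limma on log2(RPKM + 1) (log2 0.57, adjusted p = 0.0353). Without Q20 replicate 4 its log2 change was 0.54 and its edgeR adjusted p 0.0174, and over its alternatives the adjusted p ran from 8.36e-05 to 1.

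MI0000714, with a hairpin of 110 nucleotides, was the next of the higher precursors. Its values were 233, 246, 231 and 232 CPM in Q80 females, against 194.6, 160, 176 and 187 CPM in Q20 females, again without overlap. The Q80 libraries spanned a narrow range, with an SD of 6.91 CPM in Q80 and 15.1 CPM in Q20 females. The log2 fold change was 0.39 (SE 0.10, 95% interval 0.18 to 0.60) at an edgeR adjusted p of 0.151. By DESeq2 the adjusted p was 0.0401, and by limma on log2(RPKM + 1) it was 0.0425.

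Among the lower precursors, MI0005521, with a hairpin of 83 nucleotides, had the lowest p. It stood at 26.03, 26.5, 34.3 and 20.3 CPM in Q80 females, against 48.0, 41.1, 52.6 and 31.7 CPM in Q20 females. The groups overlapped, since Q80 replicate 3 was above Q20 replicate 4. The log2 fold change was -0.70 (SE 0.21, 95% interval -1.16 to -0.24) at an edgeR adjusted p of 0.169, and DESeq2 called it (log2 -0.74, adjusted p = 0.0401).

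MI0000547, with a hairpin of 89 nucleotides, followed at 196.1, 263, 146.1 and 174 CPM in Q80 females, against 327, 371, 261 and 230 CPM in Q20 females. Here too the groups overlapped, through Q80 replicate 2, the 1 L3 library of Q80 females. The log2 fold change was -0.61 (SE 0.20, 95% interval -1.04 to -0.18), and the edgeR adjusted p was 0.218. All 4 Q80 libraries were below the Q20 median in this precursor and in MI0005521, and above it in MI0000559 and MI0000714. These precursors were picked by p on the same libraries, so their positions are no separate support.

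**Figure D2:**
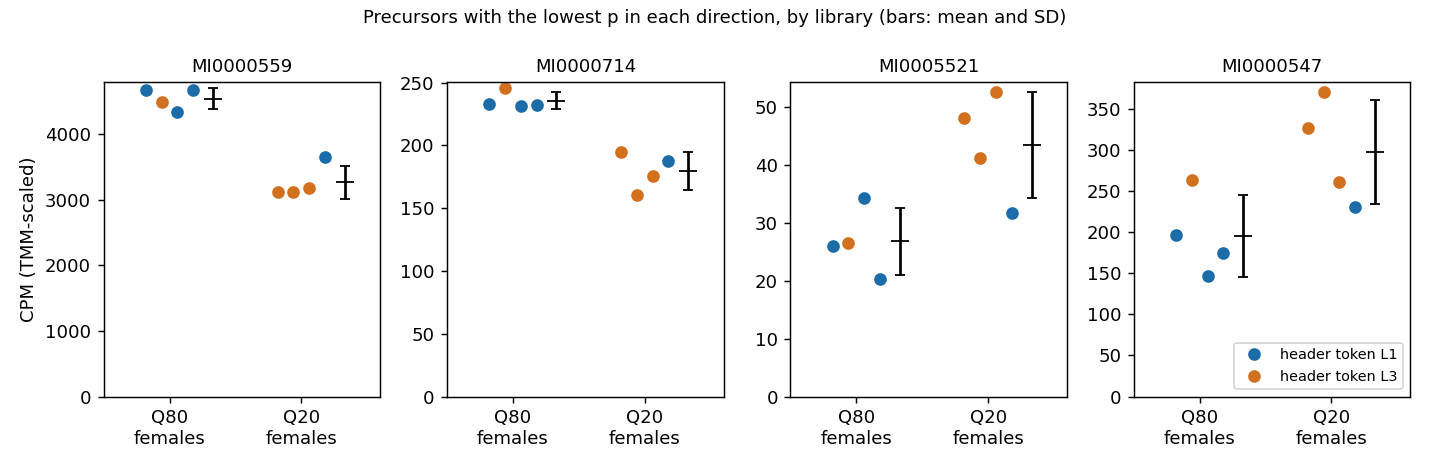
CPM of 4 precursors in each female library (points, coloured by the header token L1 or L3), with the mean and SD of each group (bars, n = 4 each). MI0000559 and MI0000714 do not overlap between Q80 and Q20 females, while MI0005521 and MI0000547 do.

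Most differences were small at every level of abundance. The median log2 fold change was 0.02 over all 300 precursors, with the middle 50% between -0.16 and 0.25, and the 39 precursors with an unadjusted p under 0.05 had a median size of 0.43. A change was estimated with a median SE of 0.13 in the 59 precursors of at least 1000 CPM, 0.13 in the 75 of 100 to 1000 CPM, 0.20 in the 96 of 10 to 100 CPM and 0.33 in the 70 below 10 CPM. The 95% interval of the change lay wholly within 1 log2 unit of 0 for 242 of 300 precursors (80.7%), and for 56 of the 59 most abundant. Among the 70 below 10 CPM it did so for 35, so that a difference of more than 1 log2 unit was not excluded for the other 35. These intervals rest on the spread of the 8 libraries alone. With the spread shared over 18 females the SE was larger for each precursor described by library above, such as 0.20 against 0.10 for MI0000559. The estimate itself exceeded 1 in size in 7 precursors, up to 1.85. In 6 of the 7 the size fell below 1 when some library was left out, and in 3 of the 7 the highest value came from Q80 replicate 2.

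The header tokens were unevenly shared, with 3 L1 libraries and 1 L3 library for Q80 females, and 1 L1 library and 3 L3 libraries for Q20 females. On principal component 2, with 24.7% of the variance, the 4 L1 libraries scored 0.918 to 4.05 and the 4 L3 libraries -5.26 to -0.0953. Genotype overlapped there, at -0.0953 to 4.05 in Q80 and -5.26 to 0.918 in Q20 females (exact permutation p = 0.0571, 2-sided). Principal component 1, with 25.6%, set Q80 replicate 2 apart at 6.69, against -4.55 to 3.33 in the other 7 libraries. With the token as a covariate edgeR called 0 precursors, and 29 had an unadjusted p under 0.05. Of the 39 above, 23 kept an unadjusted p under 0.05 in that fit and all 39 kept their direction. Of the same 39, 37 (94.9%) had the pooled direction among the L1 and among the L3 libraries, against 169 of all 300 (56.3%); the 39 were chosen on these same counts.

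**Figure D3:**
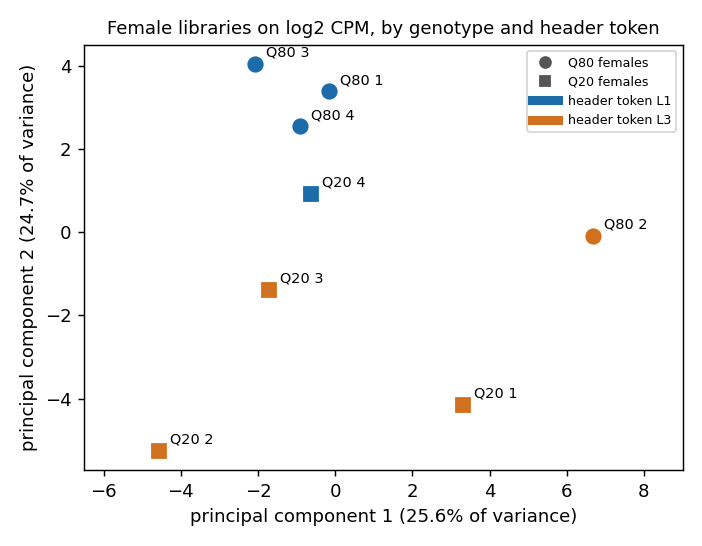
The 8 female libraries on principal components 1 and 2 of log2 CPM; circles are Q80 and squares Q20 females, numbered by replicate, and colours give the header token. L1 libraries lie above 0.9 on component 2 and L3 libraries below 0, and Q80 replicate 2 lies apart at 6.69 on component 1.

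For MI0000559 the difference in mean log2 CPM, Q80 minus Q20, was 0.32 among the L1 libraries and 0.52 among the L3 libraries, and for MI0000714 it was 0.31 and 0.48. For MI0005521 it was -0.27 among the L1 and -0.83 among the L3 libraries. MI0000547 differed by -0.43 among the L1 and -0.26 among the L3 libraries, less than its pooled -0.61, and with the token as a covariate its log2 change was -0.35. Each token is carried by a single library of 1 of the groups, so these differences have no test.

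The same contrast in males, in separate libraries of gonadal fat, gave 0 calls of 297 precursors (0%) by edgeR, and 0 by DESeq2. In the edgeR fit 16 (5.39%) had an unadjusted p under 0.05, 8 higher and 8 lower (2.69% each). This count changed with single libraries: it rose to 59 without Q20 male replicate 2 and to 35 without Q80 male replicate 2. It was 10 without Q80 male replicate 1, and 9, 7 and 8 without Q20 male replicates 1, 3 and 4. MI0000559 stood at 3719, 3231, 4082 and 3391 CPM in Q80 males, against 3471, 3158, 2301 and 2269 CPM in Q20 males, a log2 fold change of 0.36 (SE 0.18, edgeR adjusted p = 0.664). The groups overlapped, through Q20 male replicate 1, which exceeded 2 of the 4 Q80 males. In Q20 males the L1 libraries were at 3471 and 3158 CPM and the L3 libraries at 2301 and 2269 CPM. The 1 L3 library of Q80 males was at 3231 CPM. The part of the token in the male difference was not tested. MI0000714 averaged 207 ± 44.3 CPM in Q80 males and 177 ± 35.4 CPM in Q20 males (SD, n = 4 each), and MI0000547 averaged 180 ± 114 CPM in Q80 males and 251 ± 28.5 CPM in Q20 males. The male log2 change of MI0000547 was -0.48, and -1.02 without Q80 male replicate 2. MI0005521 stood at 41.1, 1561, 18.4 and 19.7 CPM in Q80 males, against 27.6, 63.8, 35.1 and 20.5 CPM in Q20 males. Its male log2 change of 3.48 rests on Q80 male replicate 2 and was -0.53 without that library.

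Whether the change differed between the sexes was tested with an interaction term in the 16 libraries. EdgeR called 0 of 327 precursors (0%), and 6 (1.83%) had an unadjusted p under 0.05. The female log2 change was above the male one in 2 of them (0.612%) and below it in 4 (1.22%). The unadjusted count was 28 without Q20 male replicate 2, 16 without Q80 male replicate 4 and 11 without Q80 male replicate 2. It was 3 without Q20 female replicate 3, with 0 calls in each of these fits. The count of calls by DESeq2 was also 0, with 5 at an unadjusted p under 0.05. MI0000403 had the lowest p among precursors with a female change below the male one. Its female minus male log2 difference was -3.09 (SE 1.17, edgeR adjusted p = 0.98), and -1.58 without Q80 male replicate 2. It averaged 125.3 ± 26.4 CPM in Q80 females and 140 ± 17.1 CPM in Q20 females, but 1726 ± 2289 CPM in Q80 males and 226 ± 172 CPM in Q20 males (SD, n = 4 each). MI0004665 had the lowest p among precursors with a female change above the male one. It averaged 562 ± 62.0 CPM in Q80 females and 434.3 ± 118 CPM in Q20 females, with 393 ± 65.6 CPM in Q80 males and 532 ± 201 CPM in Q20 males (SD, n = 4 each). Its female minus male log2 difference was 0.81 (SE 0.37, edgeR adjusted p = 0.98). The interaction for MI0005521 was -4.09 (edgeR adjusted p = 0.98), and -0.24 without Q80 male replicate 2 (adjusted p = 0.964).

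Of the 39 female precursors with an unadjusted p under 0.05, 38 were tested in males. Of these, 33 (86.8%) had the same sign there, against 187 of all 283 precursors tested in each sex (66.1%), and 3 had an unadjusted p under 0.05 with the same sign in males. Across the 283 precursors, which share libraries and are not independent replicates, the female and male log2 fold changes had a Pearson's r of 0.234 and a Spearman's rho of 0.434. Males share with females the difference in housing and, in part, that of the token, with L1 on 3 of 4 Q80 and 2 of 4 Q20 male libraries. The part of the token or housing in this was not tested. Spread was wider in males, with a common biological coefficient of variation of 0.612 in the 8 males and 0.212 in the 8 females, and a median SE of 0.31 in males and 0.182 in females.

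**Figure D4:**
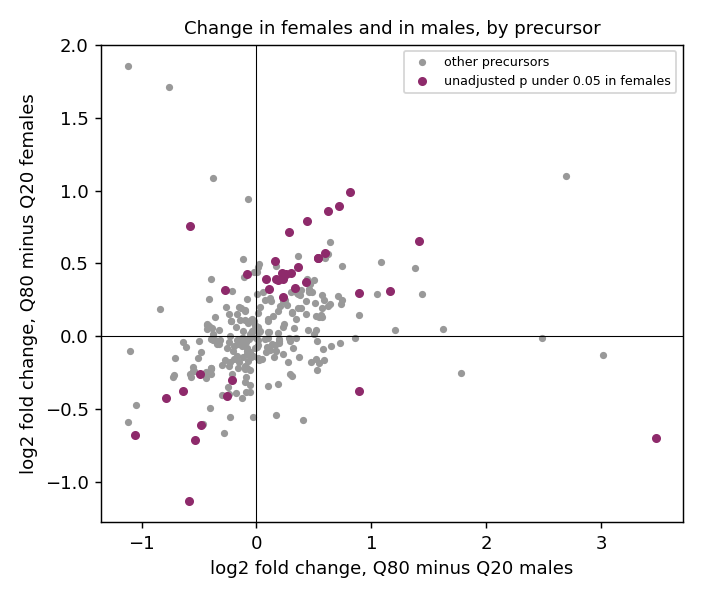
Log2 fold change of Q80 minus Q20 in females (vertical axis) and in males (horizontal axis) for the 283 precursors tested in each sex; coloured points had an unadjusted p under 0.05 in females. Of the 38 coloured points, 33 lie in the quadrants where the sexes share a sign, and the point at 3.48 in males is MI0005521.

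Whether Q80 females stood apart from females with longer repeats was tested against the mean of the 10 libraries of Q92, Q111 and Q140 females, without Q20 in the contrast. The library labelled Q140 female replicate 2 stood apart from all other females, at -26.1 on principal component 1 of 18 female libraries, where the others lay between -1.78 and 3.76. EdgeR called 0 of 332 precursors (0%). An unadjusted p under 0.05 was found for 8 (2.41%), 1 higher (0.301%) and 7 lower (2.11%) in Q80 females, and for 12 without that library, again with 0 calls. The unadjusted count was 27 without Q140 female replicate 3, 22 and 14 without Q111 female replicates 2 and 3, 5 without Q111 female replicate 1 and 2 without Q80 female replicate 4, with 0 calls in each. The count of calls by DESeq2 was 0, with 13 at an unadjusted p under 0.05. MI0000241 had the lowest p among precursors of at least 10 CPM, at 2873 ± 152.1 CPM in Q80 females (SD, n = 4) and 4158 ± 1638 CPM in the other 10 (SD, n = 10), a log2 difference of -0.55 (SE 0.22, edgeR adjusted p = 0.931). Their ranges overlapped, at 2667 to 2997 CPM in Q80 females and 2671 to 7689 CPM in the others. Over omissions of 1 library the log2 difference of MI0000241 ran from -0.62 to -0.36, the latter without Q111 female replicate 1. The header token was not a covariate in this contrast, and every Q111 female library carried L1. MI0005553 was the higher one with the lowest p, at 11.9 ± 1.46 CPM in Q80 females (SD, n = 4) and 9.29 ± 2.69 CPM in the others (SD, n = 10). Its log2 difference was 0.43 (SE 0.19, edgeR adjusted p = 0.931). The ranges overlapped here too, at 10.7 to 13.8 CPM in Q80 females and 4.38 to 13.0 CPM in the others.

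Set side by side, the 4 precursors described above took these levels over the allelic series, in which the longer alleles share the Q20 libraries as controls. Here CPM was scaled over the 18 female libraries, so the Q80 and Q20 values differ slightly from those above. MI0000559 averaged 3227 ± 185 CPM in Q20, 4320 ± 184 in Q80, 3822 ± 749 in Q92, 4693 ± 787 in Q111 and 4497 ± 1680 CPM in Q140 females (SD, n = 4, 4, 4, 3 and 3). MI0000714 averaged 178 ± 15.6, 224 ± 4.71, 226 ± 42.2, 209 ± 23.9 and 234 ± 39.9 CPM in the same order. Both had their lowest mean in Q20, but they were picked by p as higher in Q80 than in these same Q20 libraries. The ranges of the longer alleles overlapped one another. For MI0000559 those of Q92 and Q140 overlapped the 3096 to 3501 CPM of Q20. For MI0000714 those of Q92 and Q111 overlapped that of Q20. In MI0000559 the Q140 libraries stood at 2567 CPM (L3), 5289 and 5635 CPM (both L1). Those of Q92 stood at 3083 and 3906 CPM (L3), 3473 and 4826 CPM (L1). The part of the token was not tested.

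MI0000547 averaged 295 ± 67.0 CPM in Q20, 185 ± 45.9 in Q80, 216 ± 33.1 in Q92, 250 ± 72.9 in Q111 and 240 ± 51.4 CPM in Q140 females. MI0005521 averaged 43.1 ± 9.63 in Q20, 25.5 ± 5.403 in Q80, 34.2 ± 9.62 in Q92, 46.3 ± 19.9 in Q111 and 381.4 ± 589 CPM in Q140 females, the last through 1062 CPM in the library labelled Q140 female replicate 2. For these precursors Q80 had the lowest mean of the 5 genotypes, but they were picked by p as lower in these same Q80 libraries than in Q20. For MI0000547 the Q80 range overlapped that of every other genotype. For MI0005521 it overlapped all but Q111, whose lowest value was 33.8 CPM against a highest of 32.6 CPM in Q80.

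**Figure D5:**
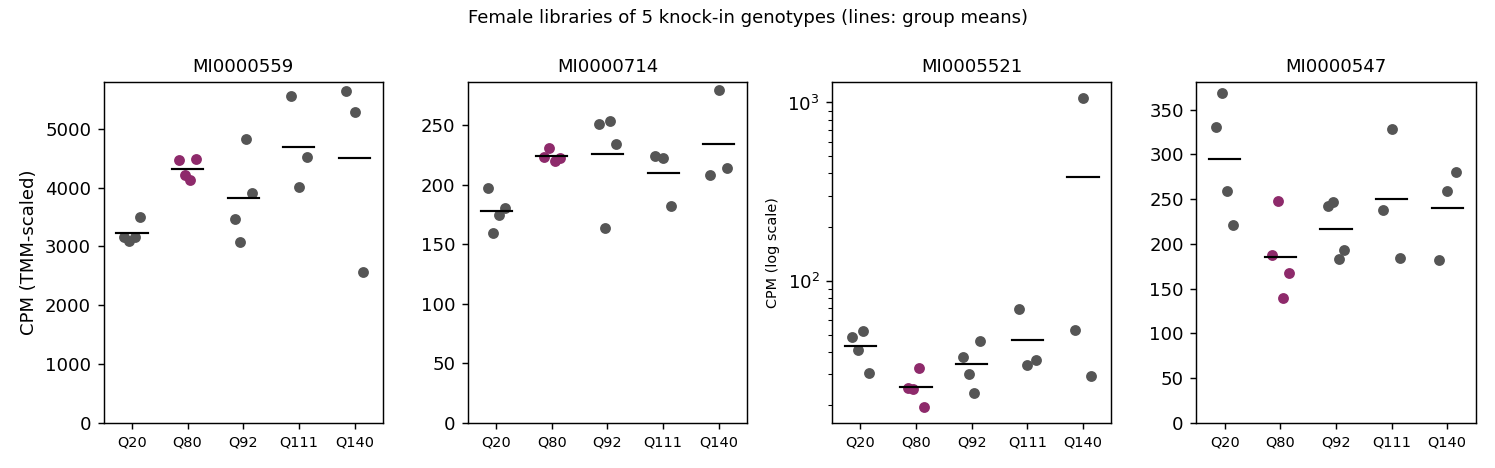
CPM of the 4 precursors in each female library of 5 genotypes in order of repeat length (points, with Q80 in purple; lines are group means; log vertical axis for MI0005521). The 4 precursors were picked by p between these Q80 and Q20 libraries. MI0000559 and MI0000714 have their lowest mean in Q20, and the 1062 CPM point of MI0005521 is the library labelled Q140 female replicate 2.

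An earlier fit over both sexes had named 3 precursors that differed between Q80 and Q20. In these females, whose libraries were among those of that fit, 0 of the 3 passed edgeR's test, with log2 changes from -0.42 to 0.51, unadjusted p from 0.0344 to 0.116 and adjusted p from 0.337 to 0.436. In 26 sets, 68 precursors in all, the deposited values were identical in every library. Of the 300 tested, 4 precursors in 2 such sets were affected, 2 of them among the 39, so that which copy gave their reads is uncertain.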

How the data were processed

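Small RNA libraries were made, per the labels' protocols, from Qiagen miRNeasy total RNA and an enriched RNA subfraction. The submitters' processing notes name CASAVA 1.8.2; for the aligner, counter, genome build and miRBase release, the sources used here give nothing. Estimated counts (expected counts) were deposited by the authors for 1187 precursors in 52 libraries, 89.1% of the values whole within 1e-04, and RPKM values for the same libraries; both were matched by library identifier, and 0 columns stayed unmatched.

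Estimated counts were rounded. edgeR 4.0.16 in R 4.3.3 (TMM, robust quasi-likelihood F test, Benjamini-Hochberg adjustment, threshold 0.05) was fitted on the 8 libraries, keeping precursors that reached 10 counts in 4 or more of them. Alternatives used DESeq2 1.42.0, limma 3.58.1 with pseudocounts of 1 and 10, filters, the header token, a replicate block and omissions. The SE of an edgeR log2 change was taken as its size over the square root of the F statistic. Principal components used log2 CPM with a prior count of 2. Among 12 pairs of libraries within groups, the lowest chi-square per degree of freedom was 26.2, far above sampling noise, and all were kept as separate. Counting error limits precursors below 10 CPM most.

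Members and lists were chosen with earlier results of these data known. All 20 miRNA lists, with 229 entries, matched 0 accessions and were not tested. Precursors named had the lowest p in each direction at a mean of at least 10 CPM, since 0 passed; the most abundant pair was added.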

Additional observations from a re-analysis of the deposited data

Results flagged for a closer look

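A library far from the other 3 in its group (Dixon's gap test, 95%) was found in 6 of 38 tests of the values reported. Chance alone gives about 1 in 20 for a whole group, and less for any single library. The precursors in these tests were partly picked by p, so this rate is no strict guide for them. MI0000714 was high in Q80 female replicate 2, at 246 CPM. MI0000559 was high in Q20 female replicate 4, at 3642 CPM, and MI0004665 was low in Q20 female replicate 2, at 259 CPM. Among males, Q80 male replicate 2 was high in MI0005521 (1561 CPM) and MI0000403 (5117 CPM), and Q20 male replicate 2 was high in MI0000403 (484 CPM).

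Over all 300 precursors tested, Q80 female replicate 2 lay far from its group in 17 (5.67%), 10 of them high. Q20 female replicate 2 did so in 11 (3.67%), against 0 to 6 for each of the other 6 female libraries. The chance rate given above is for a whole group, and that for a single library is lower. These shares are therefore not to be read against the group rate.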

How the results depend on the processing

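The count of 0 calls between Q80 and Q20 females stayed 0 under 8 of 12 alternatives: RLE size factors, a minimum of 50 counts, the 5 most abundant precursors removed, the header token as a covariate (also with RLE size factors, added after seeing the data), a replicate block, and the spread shared over 18 females or 37 libraries. It became 7 with DESeq2, 3 without a filter (2 higher, 1 lower, of 805), 11 with limma on log2(RPKM + 1) and 11 with limma on log2(RPKM + 10). Leaving out 1 library gave 0 to 8 calls; the 8, all higher, came without Q20 female replicate 4, which leaves no L1 library among Q20 females. In all, 14 precursors were called under some alternative or omission, 12 higher and 2 lower, each with an unadjusted p under 0.05 in the edgeR fit of 8 libraries. The 12 higher ones include a pair with identical deposited values, counted here as separate precursors. An unadjusted p under 0.05 was found for 38 with RLE size factors, 29 with the token as a covariate, 97 of 805 without a filter, 18 of 332 with the spread shared over 18 females and 9 over 37 libraries, against 39 of 300. The directions of the 4 precursors described by library held under every alternative and omission, with log2 changes of 0.40 to 0.57 for MI0000559, 0.34 to 0.48 for MI0000714, -0.83 to -0.54 for MI0005521 and -0.78 to -0.35 for MI0000547. Their adjusted p ran from 8.36e-05 to 1, from 0.0401 to 1, from 0.0401 to 1 and from 0.00594 to 1. With the spread shared over 18 females it was 0.741 for MI0000559.

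Deviations from the group mean had correlations of 0.0988, -0.128, 0.234 and -0.0456 between same-numbered Q80 and Q20 females, for replicates 1 to 4. Only for Q80 replicate 3 was the same-numbered Q20 library the closest. Whether the numbers pair the libraries was not tested. The replicate block gave 0 calls and 50 precursors with an unadjusted p under 0.05. It also gave 0 calls for the difference between the sexes. That difference and the contrast with longer alleles kept 0 calls under every alternative and omission run, as did the male contrast, whose omissions were added after seeing the data.

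Q80 females minus Q20 females differed in total counts by -410793 to -10311 and in the share of the 5 most abundant precursors by -2.65 to -1.28 percentage points when 1 library was left out. The difference on principal component 1 ran from -0.163 to 3.18 and turned negative without Q80 female replicate 2.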
